A study of Mus musculus with 8 samples.

Results

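The enzymes examined here build cholesterol from acetyl units, and 8 of them were chosen by gene symbol: Hmgcs1, Idi1, Fdft1, Sqle, Lss, Cyp51, Msmo1 (formerly Sc4mol) and Dhcr7. Of these, 7 had a probe on the array, out of 16590 named genes, and together they had 8 probes, 2 of them for Sqle. Fdft1 had no probe of that name and was not analysed here. The samples were goblet cells, which make the mucus that coats the gut, and came from C57Bl/6 mice, with 4 arrays for small intestine and 4 for colon. Epithelium was released over 15 minutes at 37 C in a buffer with 0.05% EDTA, and cells carrying CK18 and the lectin UEA-I on a CD45-negative and CD24-negative background were sorted before their total RNA was labelled for an Illumina array. The labels name no treatment, age or sex, and do not say whether the 4 samples of a tissue came from separate mice, so the spread that every p-value rests on may be technical only.

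Cholesterol synthesis starts when Hmgcs1 joins acetyl units into HMG-CoA, from which mevalonate is made. Mevalonate becomes isoprene units, the isoprene units become squalene, and squalene is oxidised and folded into lanosterol, which loses methyl groups and shifts its double bonds to end as cholesterol. When sterol in the endoplasmic reticulum membrane is low, Scap carries the factor Srebf2 to the Golgi, where proteases release it to switch on most of these enzymes, while Insig1 and Insig2 hold the complex back when sterol is plentiful. In the gut lining, cholesterol also arrives from the lumen through Npc1l1 and is pumped back by Abcg5 and Abcg8.

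Mean deposited signal ran from 386 to 558 over the 8 arrays, and between 12447 and 13922 of 25697 probes were above background on an array, meaning a detection p-value under 0.05. Goblet cell markers were present in both tissues: all 11 with a probe were above background, and 6 were higher in colon by limma. Their summed intensity was 32440 to 33100 in small intestine and 37810 to 46110 in colon. Tff3 alone of them had a lower mean in colon, without overlap and without a call (log2 fold change -0.31, limma adjusted p = 0.202). Markers of other cells differed too. All 13 enterocyte markers were higher in small intestine, with sums of 49930 to 70120 against 2625 to 12010, and 6 of 7 Paneth cell markers were too, with sums of 68330 to 80270 against 4075 to 14440. Of 10 colonocyte markers, 9 were higher in colon, with sums of 19010 to 21280 against 3009 to 3366. Lymphocyte markers summed to 3784 to 6925 in small intestine and 377 to 754 in colon. Of the 6 tested, 5 were higher in small intestine, and Cd7 and Cd79a were above background on no array. The small intestine sums leaned on Cd74, the brightest of the list on each array there, at log2 values of 11.20, 11.36, 12.24 and 12.30. Each of the sums named so far separated the tissues completely, at an exact permutation p of 0.0286, two-sided, the smallest that 4 against 4 arrays allow. Sums of 9 enteroendocrine, 6 stem cell, 6 tuft cell and 9 stromal markers overlapped between the tissues, and Pou2f3, Il25, Gfi1b, Col1a1, Col1a2 and Des were above background on no array. Single genes of these lists differed by limma, beside 22.4% of all genes called. Of 6 stem cell markers, Olfm4 and Axin2 were lower in colon and none was higher. Of 9 enteroendocrine markers, 3 were lower and 1 was higher. Tagln, a stromal marker, was higher, and no tuft cell marker was called. Fabp1, Cd3g, Cck and Insm1 were above background on small intestine arrays alone. Atp12a, Slc6a14, Tagln and the brightest probe of Aqp8 were above background on colon arrays alone. Each of these could be called in 1 direction only, and its count within its list is no support. The part these cells play in the results below was not tested, and in sorted bulk RNA, fewer cells of a type and less RNA per cell cannot be told apart.

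Across the pathway, 2 of the 7 measured enzymes were higher in colon, Msmo1 at 2.20-fold and Lss at 1.71-fold, none was lower, and 5 were not called. A gene was called when its limma p-value, adjusted by Benjamini-Hochberg over all 13618 probes tested, was under 0.05, and a gene with several probes was represented by its brightest tested one. The called share of 28.6% compares with 22.4% of all 9080 genes tested, and for calls toward colon alone with 13.1% of them. Over all genes, 9.30% were called toward small intestine, the direction in which no enzyme was called. The log2 fold change, colon minus small intestine, was above 0 for 6 of the 7 enzymes and for 55.5% of all genes, and its median was 0.33 for the enzymes and 0.07 for all genes. For 3 of the 7, Hmgcs1, Lss and Msmo1, every colon array was above every small intestine array, a pattern that 15.7% of all genes showed in that direction, 10.4% in the opposite one and 26.2% in either. Without scaling between arrays, Dhcr7 moved below 0, leaving 5 of 7 above it.

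**Figure D1:**
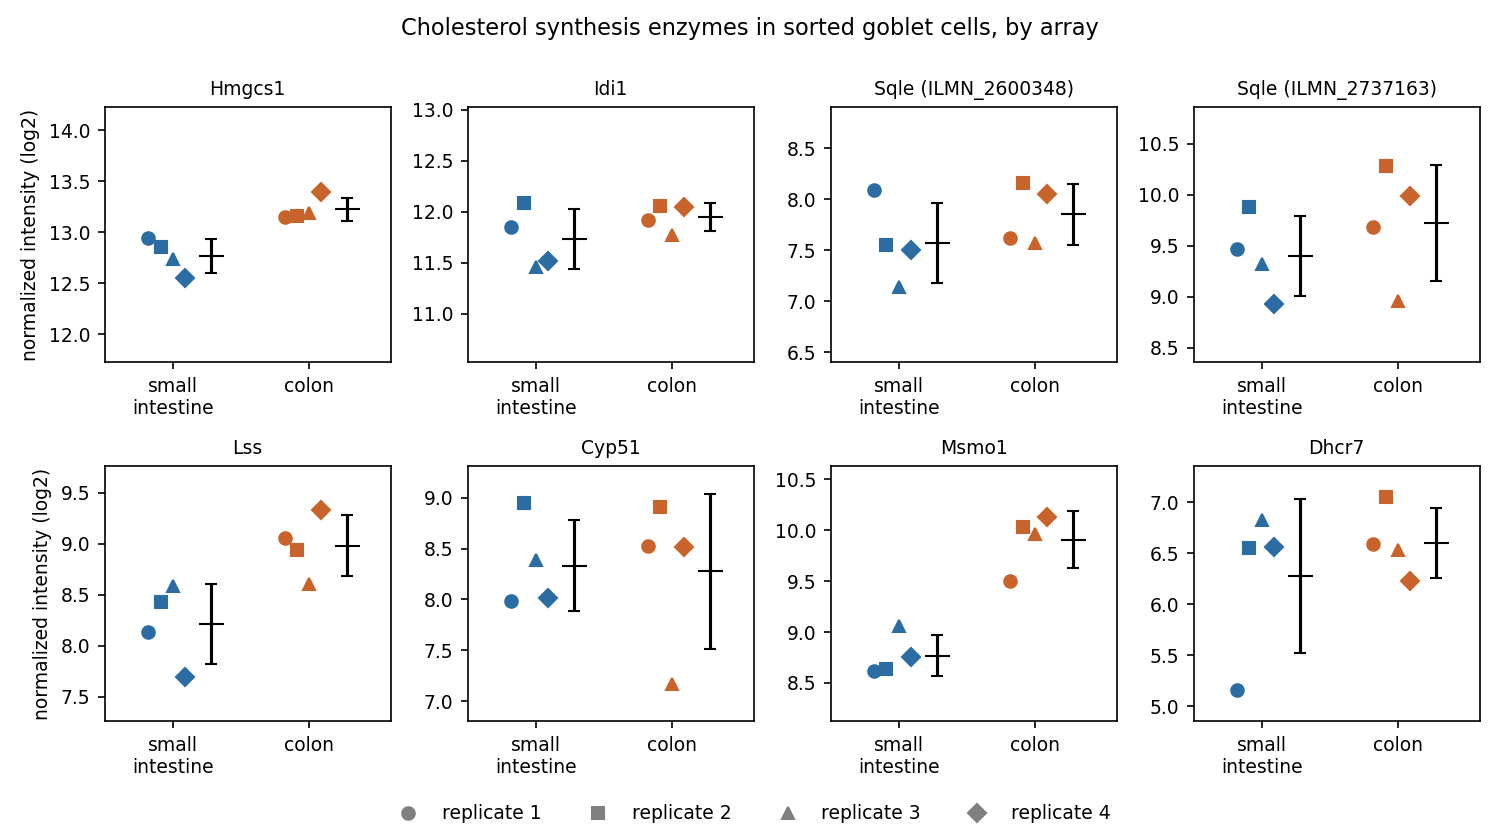
Normalized log2 intensity (vertical axis, the range differs between panels and its width does not) of the 8 probes on each of the 8 arrays, small intestine in blue and colon in orange, with the mean and SD of 4 arrays beside each group. The colon points of Hmgcs1, Lss and Msmo1 all lie above the small intestine points, and the groups overlap in the other 5 panels.

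Promoters are shown for the 3 enzymes whose groups did not overlap and for Cyp51, whose group means were nearly equal. RefSeq (GRCm38.p6) promoter entries matched 6 of the 8 enzymes, with no entry for Sqle or Fdft1, and the 250 bases before each transcript start were searched on both strands. The motifs marked were the sterol regulatory element TCACNCCAC, a classical binding site of the SREBP factors, and CCAAT, the NF-Y box that often stands beside it. The GC box GGGCGG and the E-box CACGTG were searched too and are not marked. Capitals mark matches of the marked motifs on either strand, and no marked match overlapped another. The regions are chr13:119690101-119690350 on the plus strand for Hmgcs1, chr10:76531355-76531604 on the plus strand for Lss, chr5:4104698-4104947 on the minus strand for Cyp51, and chr8:64733579-64733828 on the minus strand for Msmo1. Each is written 5′ to 3′ along the gene.
Hmgcs1: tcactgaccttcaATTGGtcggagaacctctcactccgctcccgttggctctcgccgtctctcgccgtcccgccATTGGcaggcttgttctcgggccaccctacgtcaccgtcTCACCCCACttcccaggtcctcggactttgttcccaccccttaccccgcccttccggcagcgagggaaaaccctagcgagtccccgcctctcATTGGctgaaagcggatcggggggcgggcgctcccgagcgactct
Lss: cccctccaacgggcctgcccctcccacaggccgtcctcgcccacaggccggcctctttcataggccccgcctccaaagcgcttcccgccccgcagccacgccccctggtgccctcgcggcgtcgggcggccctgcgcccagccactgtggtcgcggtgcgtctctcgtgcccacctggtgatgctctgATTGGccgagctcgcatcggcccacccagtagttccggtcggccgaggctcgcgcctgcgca
Cyp51: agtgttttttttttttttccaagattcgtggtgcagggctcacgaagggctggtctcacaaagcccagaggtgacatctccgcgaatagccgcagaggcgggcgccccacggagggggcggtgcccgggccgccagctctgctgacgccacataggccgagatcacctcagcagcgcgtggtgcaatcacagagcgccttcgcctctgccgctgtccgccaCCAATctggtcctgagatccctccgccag
Msmo1: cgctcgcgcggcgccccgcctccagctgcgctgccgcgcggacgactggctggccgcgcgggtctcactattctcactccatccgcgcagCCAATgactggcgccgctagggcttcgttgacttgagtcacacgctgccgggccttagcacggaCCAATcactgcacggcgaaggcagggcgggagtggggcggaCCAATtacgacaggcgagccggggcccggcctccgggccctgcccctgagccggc
An exact match to the sterol element was found in Hmgcs1 alone among the 6 enzymes, 137 bases before the start. Of 32851 mouse promoters of this length, 1.05% hold one. At least 1 CCAAT was present in each of the 4 sequences printed, as in 33.8% of all promoters, and 3 were present in both Hmgcs1 and Msmo1, a number that 2.79% of promoters reach. At least 1 GC box was present in each of the 4 sequences, as in 32.7% of all promoters. No E-box, which 6.02% of all promoters hold, was present in them. A match describes the letters, not a site in use. Only these exact letters were searched, so the lack of a match does not show that the element is absent. Whether these motifs bear on the differences between the tissues was not tested.

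The enzymes that make the isoprene units come first. Hmgcs1, the cytosolic HMG-CoA synthase, had log2 intensities of 12.94, 12.85, 12.74 and 12.55 in small intestine and 13.15, 13.16, 13.19 and 13.40 in colon. Its groups did not overlap, the colon arrays lay close together except array 4, and the difference was small. The means were 12.77 ± 0.17 and 13.22 ± 0.12 (SD over 4 arrays of each tissue), a log2 fold change of 0.45 (SE 0.18, 95% interval 0.065 to 0.84) with a limma adjusted p of 0.0947, which missed the threshold. The unadjusted p was 0.0262, and the adjusted p passed in 3 of 29 processing alternatives, among them 0.00866 with a variance prior that follows intensity. In the authors' own processed values the groups overlapped, the highest small intestine array being at 8829 and the lowest colon array at 8259.

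Idi1, the isomerase that interconverts the isoprene building blocks, read 11.85, 12.09, 11.46 and 11.52 in small intestine and 11.92, 12.06, 11.77 and 12.05 in colon. The colon arrays lay inside the span of the small intestine arrays, and only small intestine arrays 3 and 4 were below every colon array. The log2 fold change was 0.22 (SE 0.20, 95% interval -0.22 to 0.66), with an adjusted p of 0.483.

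Fdps, which joins isoprene units into farnesyl diphosphate, and Mvd, which makes the first of those units, belong to the same stretch of the pathway and were both higher in colon. Fdps read 9.91, 9.88, 9.50 and 9.20 in small intestine and 10.27, 10.56, 10.54 and 10.67 in colon, with no overlap. Its log2 fold change was 0.89 (SE 0.21), a 1.85-fold difference with a limma adjusted p of 0.0119. Mvd read 6.40, 6.39, 5.96 and 5.55 in small intestine and 6.60, 6.98, 7.35 and 7.79 in colon, again apart, with a log2 fold change of 1.10 (SE 0.29) and an adjusted p of 0.0197. The call of Mvd held in 19 of 29 alternatives, with adjusted p up to 0.169, and was lost under the replicate block and without small intestine array 3, small intestine array 4 or colon array 4. These were the only 2 called among 10 tested genes of a list of 15 other cholesterol synthesis genes, and none was lower in colon. Over all genes, 13.1% were called toward colon and 9.30% toward small intestine. Of the 10, 8 had a log2 fold change above 0, beside 55.5% of all genes, and the median was 0.27. Among the rest of that list, Sc5d was too dim to test.

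Squalene epoxidase, Sqle, adds the oxygen that commits squalene to sterols and is a control point of the pathway. Its brighter probe read 9.47, 9.88, 9.32 and 8.93 in small intestine and 9.68, 10.28, 8.96 and 9.98 in colon. Colon array 3 was nearly as low as the lowest small intestine array, so the groups overlapped. The log2 fold change was 0.33 (SE 0.30, 95% interval -0.34 to 1.00; adjusted p = 0.491). The dimmer probe read 8.09, 7.56, 7.14 and 7.50 in small intestine and 7.62, 8.16, 7.57 and 8.05 in colon, with a log2 fold change of 0.28 (SE 0.24, adjusted p = 0.460). Both probes gave a similar difference and neither was called, although they ranked small intestine array 1 differently.

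Lss, lanosterol synthase, folds oxidosqualene into the first sterol ring. It read 8.13, 8.43, 8.59 and 7.69 in small intestine and 9.05, 8.94, 8.61 and 9.33 in colon. The groups did not overlap, but the lowest colon array, number 3, was almost level with the highest small intestine array, number 3. The means were 8.21 ± 0.39 and 8.98 ± 0.30 (SD, n = 4 each), giving a log2 fold change of 0.77 (SE 0.24, 95% interval 0.24 to 1.31) and a limma adjusted p of 0.0438. That call was close to the threshold and held in 10 of 29 alternatives, with adjusted p from 0.0272 to 0.358. It was lost without small intestine array 1, 2 or 4 and without colon array 1, 2 or 4, each left out in turn. In the authors' processed values the groups overlapped, with a highest small intestine value of 364 and a lowest colon value of 321.

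Cyp51, the cytochrome P450 that removes a methyl group from lanosterol, showed no common direction. It read 7.98, 8.94, 8.39 and 8.01 in small intestine and 8.53, 8.90, 7.17 and 8.51 in colon. Colon array 3 was the lowest of all 8 arrays and small intestine array 2 the highest. The log2 fold change was -0.05 (SE 0.37, 95% interval -0.86 to 0.75; adjusted p = 0.940), and the interval is wide enough to hold the difference seen for Hmgcs1. Without colon array 3 the log2 fold change was 0.32 (adjusted p = 0.481), and without small intestine array 2 it was 0.15.

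Msmo1, the methylsterol monooxygenase that acts on the remaining methyl groups, had the clearest difference of the 7. It read 8.62, 8.63, 9.06 and 8.76 in small intestine and 9.50, 10.04, 9.97 and 10.13 in colon. Every colon array was well above every small intestine array, with colon array 1 the lowest of its group. The means were 8.77 ± 0.20 and 9.91 ± 0.28 (SD, n = 4 each), a log2 fold change of 1.14 (SE 0.20, 95% interval 0.69 to 1.59) with a limma adjusted p of 0.00221. The call held in 28 of 29 alternatives, and leaving out any 1 array gave log2 fold changes of 1.06 to 1.27. It was lost only with no scaling between arrays, where the log2 fold change was 0.97 and the adjusted p 0.0754. The authors' processed values were 314, 416, 500 and 425 in small intestine and 672, 1025, 946 and 1073 in colon, also without overlap, whereas the signals before scaling overlapped, with 736 on small intestine array 4 and 704 on colon array 1.

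**Figure D2:**
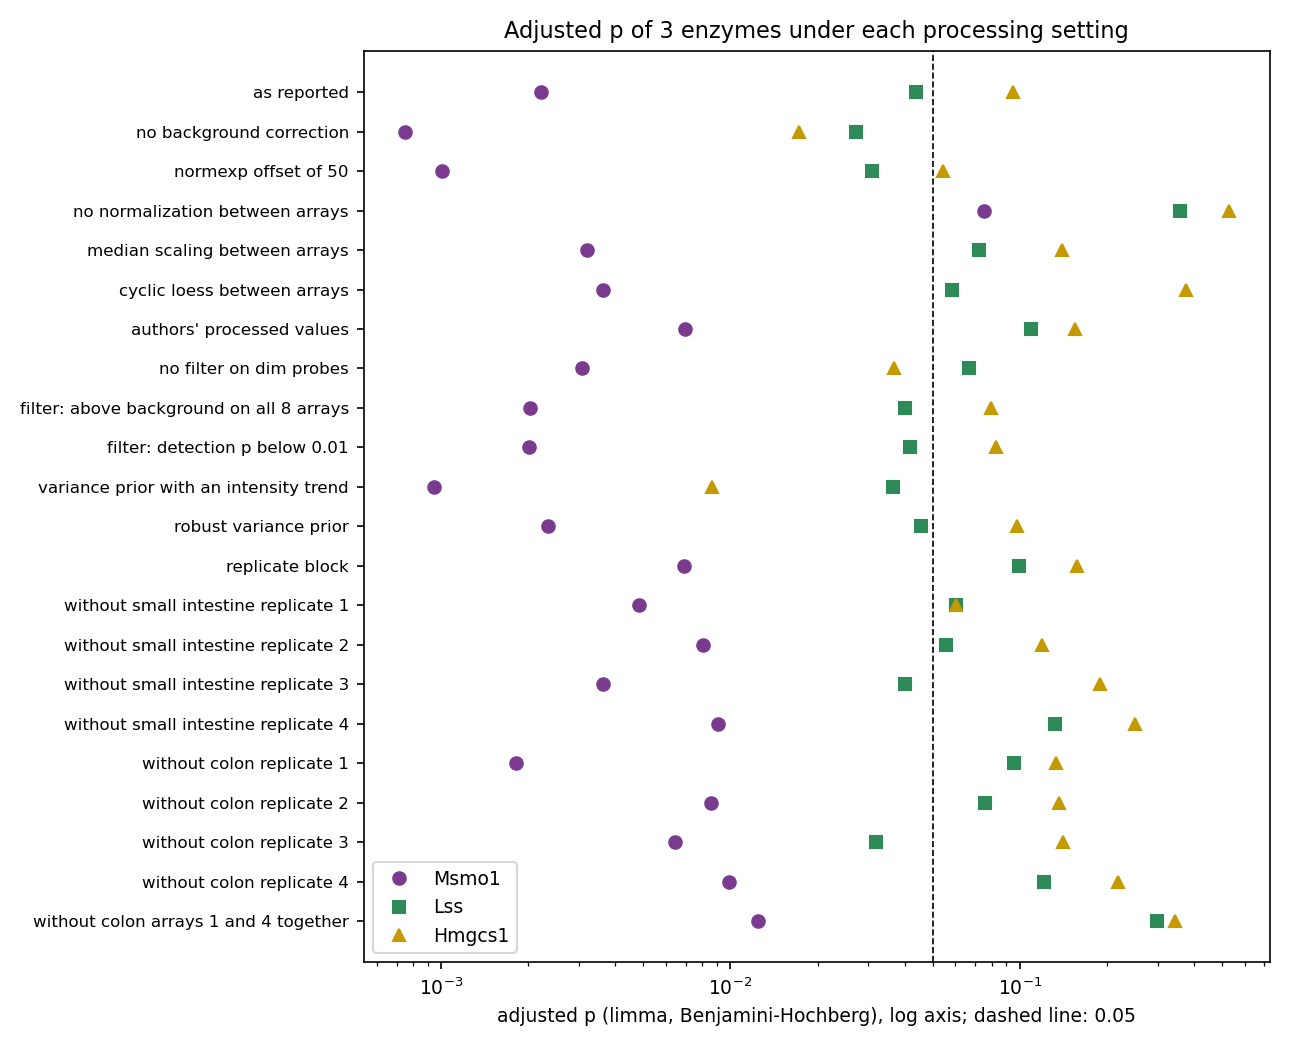
Limma adjusted p (horizontal log axis, dashed line at 0.05) of Msmo1, Lss and Hmgcs1 as reported and under the processing settings listed on the vertical axis. Msmo1 lies left of the line except with no normalization between arrays, where it is at 0.0754, whereas Lss and Hmgcs1 lie on both sides of it.

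Dhcr7, which performs the last reduction in one of the closing branches, was the only one of the 7 not above background on every array. It read 5.16, 6.55, 6.83 and 6.56 in small intestine and 6.59, 7.05, 6.53 and 6.22 in colon, and the exception was small intestine array 1. The other 7 arrays overlapped fully between the tissues. The log2 fold change was 0.33 (SE 0.35, 95% interval -0.44 to 1.09; adjusted p = 0.553), and without small intestine array 1 it was -0.05.

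The enzymes did not rank the arrays alike. Within colon, array 2 was highest for Idi1, Sqle, Cyp51 and Dhcr7, and array 4 for Hmgcs1, Lss and Msmo1, while array 3 was lowest for Idi1, Sqle, Lss and Cyp51. The mean deviation of the 7 genes from their own means was -0.42, 0.04, -0.10 and -0.44 in small intestine and 0.19, 0.48, -0.13 and 0.36 in colon. Small intestine array 2 thus stood above colon array 3. The difference between 2 enzymes was then taken on each array and compared between the tissues. Of the 21 pairs, 2 did not overlap, Hmgcs1 against Msmo1 and Cyp51 against Msmo1, each with an exact permutation p of 0.0286 (two-sided, n = 4 against 4). After Benjamini-Hochberg adjustment over the 21 pairs the smallest p was 0.267. Since 0.0286 is the smallest unadjusted p that the design allows, 2 pairs at that value could not pass an adjustment over 21, and the test says little about whether the enzymes differed from each other.

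**Figure D3:**
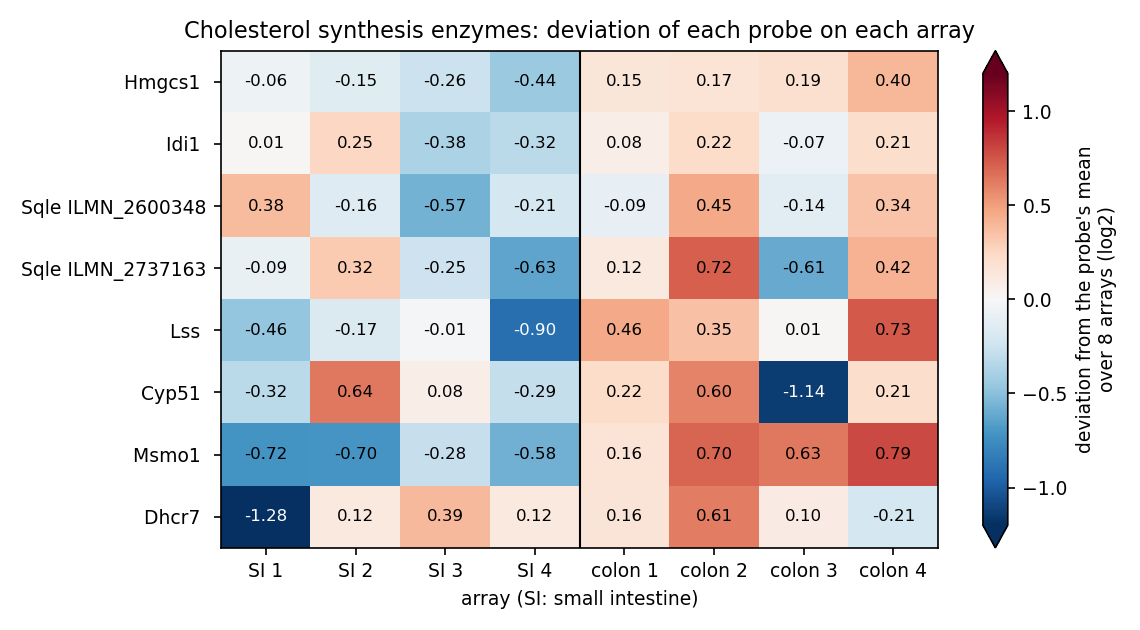
Deviation of each probe from its own mean over the 8 arrays (log2, colour and printed value), with arrays in columns, small intestine left of the line and colon right of it. Msmo1 is below its mean on all 4 small intestine arrays and above it on all 4 colon arrays, whereas Cyp51 has its lowest value, -1.14, on colon array 3 and Dhcr7 its lowest, -1.28, on small intestine array 1.

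The 6 genes, other than these enzymes, whose profile over the 8 arrays was nearest the enzymes' average were Spry2, Iscu, Ccz1, Gnptab, Cdx1 and Krt8. Likeness was the root mean square difference of centred log2 values, which was 0.101 for Spry2 and 0.132 for Krt8, against 0.222 for Hmgcs1 and 0.461 for Dhcr7, the nearest and the farthest of the enzymes themselves. None of the 6 was called, and the groups of Krt8 alone did not overlap.

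Among genes that sense sterol, 1 of 11 tested was higher in colon, 1 was lower and 9 were not called, with a median log2 fold change of 0.29, beside 13.1% and 9.30% of all genes called in those directions. The gene higher in colon was Srebf2, the factor that drives the pathway, at 7.76, 8.20, 8.40 and 8.01 in small intestine and 8.90, 8.87, 8.95 and 9.29 in colon. Its groups did not overlap, and the log2 fold change was 0.91 (SE 0.20, limma adjusted p = 0.00798), a 1.88-fold difference at the level of its transcript. Marchf6, a ubiquitin ligase that marks squalene epoxidase for breakdown, was the gene lower in colon, with a mean of 7.85 ± 0.11 there against 8.80 ± 0.44 (SD, 4 arrays each). Its log2 fold change was -0.95 (SE 0.23, adjusted p = 0.0133). Insig1, itself a target of the factor, had means of 11.37 and 12.03 and a log2 fold change of 0.66 (SE 0.24, adjusted p = 0.0790) on its brightest probe, and its 4 probes ranged from 0.06 to 0.66 without a call. Scap, the escort protein, had a log2 fold change of 0.35 (SE 0.20, adjusted p = 0.261).

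Sterol uptake genes moved in both directions, with 2 of 10 tested higher in colon, 3 lower and a median log2 fold change of -0.22, beside 13.1% and 9.30% of all genes. The median became 0.20, with 3 higher and 3 lower, when a gene's probes were averaged or the probe with the smallest p stood for it. The gene added under the smallest p was Vldlr. Its probe there was above background on colon arrays alone, so it could be called in that direction only. Npc1l1, the transporter that takes up cholesterol from the lumen, averaged 10.05 ± 0.57 in small intestine against 5.37 ± 0.77 in colon (SD, 4 arrays each), and 1 colon array was above background. Its log2 fold change was -4.67 (SE 0.39, adjusted p = 1e-05). Gramd1b and Gramd1c, which carry cholesterol from the plasma membrane to the endoplasmic reticulum, were lower in colon by log2 fold changes of -2.24 (SE 0.39) and -1.09 (SE 0.22), with Gramd1b above background on 2 colon arrays. Npc2, a lysosomal sterol carrier, was called higher in colon with a log2 fold change of 0.67 (SE 0.20, adjusted p = 0.0326), in 13 of 29 alternatives and with adjusted p up to 0.295. That call was lost with no normalization between arrays, median scaling, cyclic loess or the authors' processed values, and under the replicate block. It was also lost without small intestine array 3 or 4, without colon array 2, 3 or 4, and without colon arrays 1 and 4 together. Mylip, a ubiquitin ligase that limits lipoprotein uptake, was not above background on any small intestine array and was at least 1.97-fold higher in colon (limma adjusted p = 0.00233), a bound set by each small intestine array's lowest signal above background or the probe's own value, whichever was higher. Mylip passed the filter on dim probes through its colon arrays alone, so it could be called in that direction only, and its count among the uptake genes is no support. Stard4, a cytosolic sterol carrier, had a log2 fold change of -0.61 (SE 0.32, adjusted p = 0.200).

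Genes of sterol export and oxysterols were lower in colon in 5 of 6 tested, with a median log2 fold change of -2.70, against 9.30% of all genes called in that direction. Abcg8 and Abcg5, whose proteins pair to return sterols to the lumen, had log2 fold changes of -4.48 (SE 0.31) and -3.84 (SE 0.31). Abcg8 and Abca1 were above background on 2 of the 4 colon arrays, so the sizes of their differences are approximate. Apoa1, the main protein of HDL particles, was lower by -4.95 (SE 1.02, adjusted p = 0.00529), and its colon arrays spread from 5.47 to 11.75 while all small intestine arrays lay between 13.51 and 13.77. Abca1, which loads HDL, was lower in colon at -1.55 (SE 0.26) on the log2 scale, and Nr1h3, the oxysterol receptor LXR alpha, averaged 9.06 in small intestine and 8.06 in colon (SE of the difference 0.17). Apoa1 also stands in the enterocyte marker list, and the enterocyte sums given above were lower in colon too. Another 4 genes of the list, Abcg1, Ch25h, Apoe and Lcat, were too dim to test.

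Other users of mevalonate, such as the enzymes that attach prenyl groups and build dolichol, gave 0 calls among 11 tested by limma, beside 22.4% of all genes called. Of the 11, 3 had an unadjusted p under 0.05, all toward colon, and the median log2 fold change was -0.02. In fatty acid synthesis, which draws on the same acetyl units, 5 of 12 tested genes were higher in colon, 1 was lower and the median was 0.43, beside 13.1% of all genes called toward colon and 9.30% toward small intestine. Acly and Acss2, which supply acetyl-CoA in the cytosol, had log2 fold changes of 1.48 (SE 0.21) and 1.42 (SE 0.28), and Acaca, the committed step, 0.82 (SE 0.22, adjusted p = 0.0245). The call of Acaca held in 16 of 29 alternatives, with adjusted p up to 0.218, and that of Acly in all 29. Scd2, a desaturase, had means of 6.64 ± 0.30 and 8.65 ± 0.63 (SD, n = 4 each), a log2 fold change of 2.01 (SE 0.30, adjusted p = 0.000718). Its relative Scd1 was not above background on any small intestine array and was higher in colon by at least 4.79-fold. Scd1 passed the filter through its colon arrays alone, so it could be called in that direction only, and its count among the 5 is no support. Fads1, the delta-5 desaturase, was lower in colon by -1.38 (SE 0.24, adjusted p = 0.00180). Fasn, which builds the chain itself, was above background on only 2 arrays of each tissue, with a log2 fold change of 0.07 (SE 0.28, adjusted p = 0.897).

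**Figure D4:**
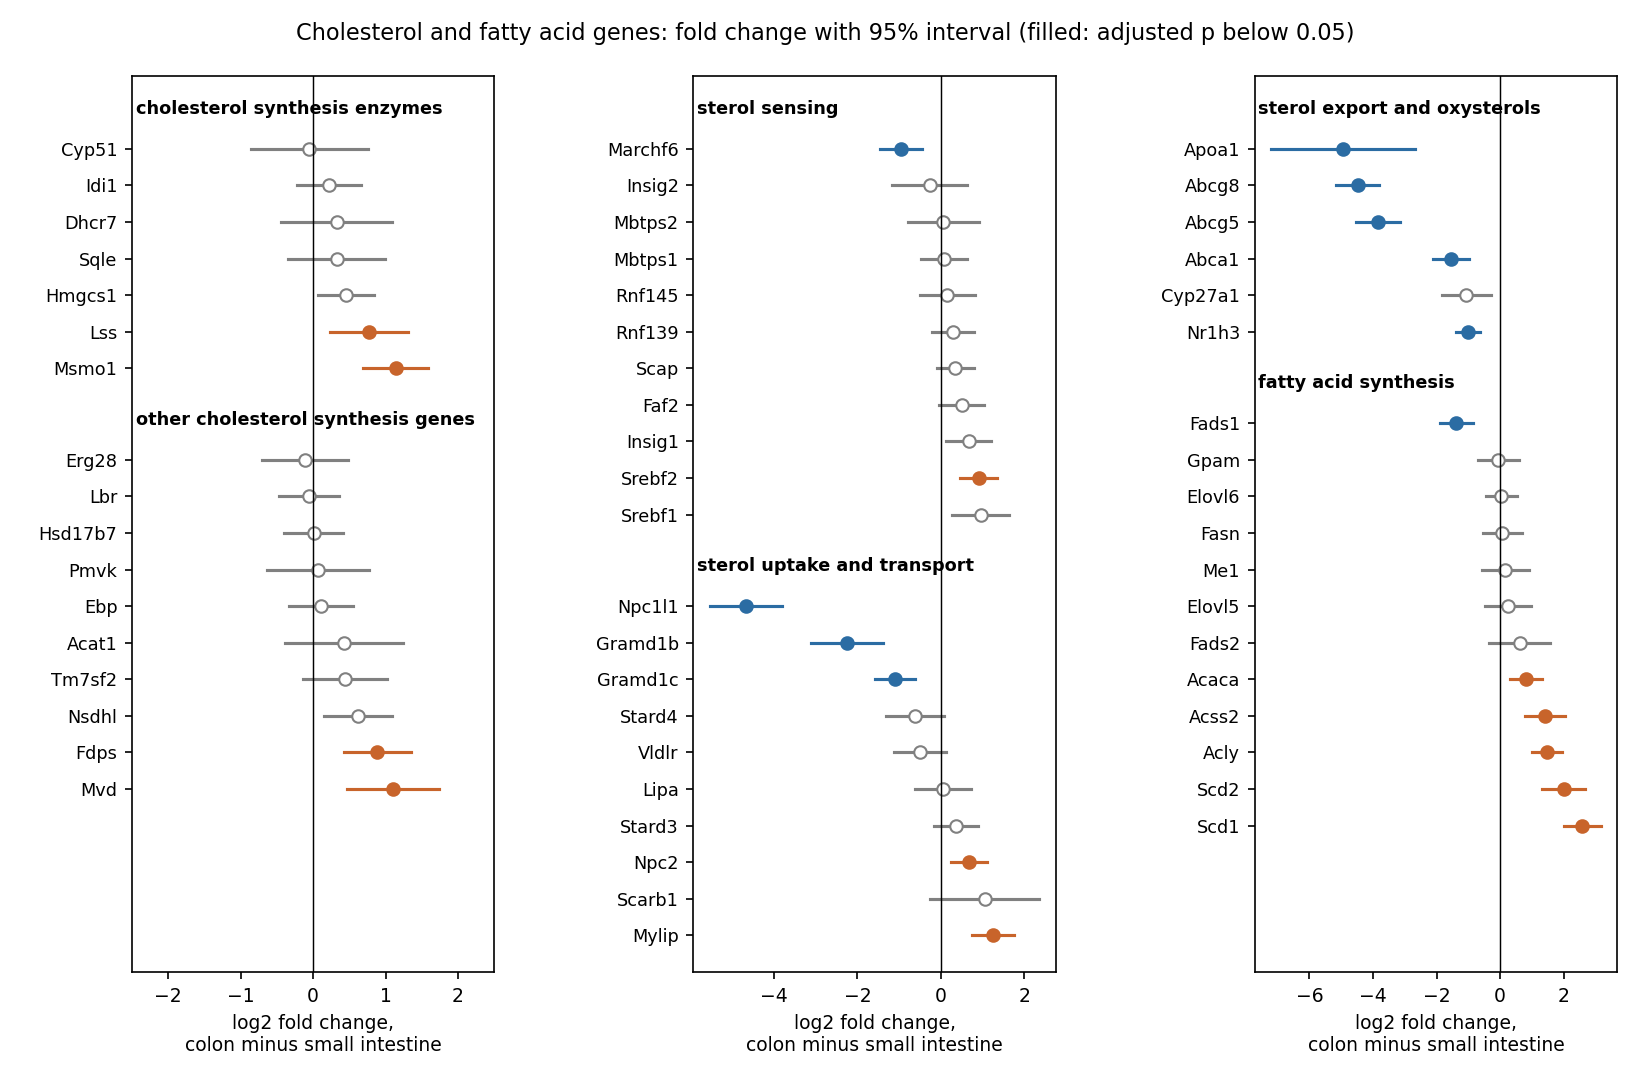
Log2 fold change, colon minus small intestine, with its 95% interval for the tested genes of 6 lists (the other mevalonate users are not drawn), with a separate horizontal range in each panel. Filled points passed an adjusted p of 0.05, orange toward colon and blue toward small intestine: 2 enzymes are filled orange, and 5 of the 6 export and oxysterol genes are filled blue.

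The cells of other types noted above also varied among the colon arrays, with Paneth cell marker sums of 14440 and 14270 on arrays 1 and 4 and of 4764 and 4075 on arrays 2 and 3. Without arrays 1 and 4, Msmo1 had a log2 fold change of 1.23 (limma adjusted p = 0.0125), while the Paneth cell sums of the tissues still lay far apart on the arrays that remained. On the same 6 arrays Lss had 0.57 (adjusted p = 0.298), Fdps 0.93 (adjusted p = 0.0710) and Srebf2 0.82 (adjusted p = 0.0882). With all arrays, the log2 fold changes were 1.14 for Msmo1, 0.77 for Lss, 0.89 for Fdps and 0.91 for Srebf2. With only colon arrays 2 and 3 left, 1748 of all probes were called against 2919, so a lost call need not mean a smaller difference. The part of Paneth cells in these differences was not tested. Proliferation genes summed to 6655 to 9591 in small intestine and 4745 to 6305 in colon, without overlap (exact permutation p = 0.0286, two-sided). Those sums leaned on Mcm6 and Mcm5, the brightest of the list. On brightest probes, 0 of 10 were called by limma, beside 22.4% of all genes, and 9.30% of all genes toward small intestine. Of the 10, 5 had an unadjusted p under 0.05, all toward small intestine. Dimmer probes of Birc5 (limma adjusted p = 0.0221 and 0.03445) and Mcm6 (0.0483) were called lower in colon. The part of proliferation in the differences of the enzymes was not tested.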

How the data were processed

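RNA from 4 small intestine and 4 colon samples was hybridised to Illumina arrays. The deposited table holds each probe's intensity, not normalized, with its detection p-value, per the file headers. The authors' second table holds processed intensity values. Each of its columns is a straight line of the deposited signal, with 141 to 163 subtracted and the mean set to 293 on every array. The scanner software and its settings are not given in the sources used here.

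Probes were named through GEO's platform annotation, updated to RefSeq symbols by Entrez identifier: 23978 of 25697 had 1 symbol and 1719 none. In 1 damaged cell the value was restored from the second table. Signals were corrected and normalized with neqc (normexp background from detection p-values, offset 16, quantile, log2) in limma 3.58.1 under R 4.3.3. Probes with a detection p-value under 0.05 on at least 4 of 8 arrays were tested with lmFit and eBayes, two-sided, with Benjamini-Hochberg adjustment. The lowest values above background lay between 5.28 and 5.61, and the small number of arrays limits precision. On simulated data for this comparison (13618 probes), 40 of 100 probes changed 2-fold and 88 of 100 changed 4-fold were recovered, with 5 false calls of 133. No other probes were changed there, whereas 21.4% of probes were called in the real data, so these recovery rates need not hold for it.

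The genes and lists were chosen with earlier results of these data known, and some genes of the lists are not reported here. Named genes were all enzymes, the most changed called genes of each list (up to 2 in each direction), the control points, and the 6 most alike in profile. Gramd1c, Abcg5, Abca1, Nr1h3, Acly, Acss2 and Acaca were named after their values were seen. Alternatives covered background correction, normalization, filters, the variance prior, the probe that stands for a gene, a replicate block and arrays left out. Replicate numbers appear in both tissues, but same-numbered samples correlated at 0.07, 0.25, -0.18 and 0.05, so they were not treated as pairs. Python 3.11.15, numpy 2.4.6, pandas 2.3.3 and matplotlib 3.10.9 were used.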

Additional observations from a re-analysis of the deposited data

Results flagged for a closer look

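Among 50 groups of 4 arrays, 2 held a single array far from the other 3 by Dixon's test, which chance alone gives in about 1 in 20 groups. Hmgcs1 on colon array 4 was at 13.4, the next array being at 13.19 and the lowest at 13.15. Dhcr7 on small intestine array 1 was at 5.16, not above background, with the next array at 6.55. No cause was tested.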

How the results depend on the processing

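The count of 2 called enzymes became 0 with no normalization between arrays, where 1 had an unadjusted p under 0.05, and 1 with median scaling, cyclic loess, the authors' processed values, the replicate block, or without colon arrays 1 and 4, and it was 1 to 2 with single arrays left out. It was 3 with no background correction and with the intensity trend, where Hmgcs1 was called too, and 2 with no filter on dim probes, where Hmgcs1 (adjusted p = 0.0368) took the place of Lss (0.0666). Lss was the call lost wherever the count was 1, and Msmo1 was lost only with no normalization between arrays. Of all probes, 2919 were called (21.4%), 1795 with no normalization, 1748 without colon arrays 1 and 4, and 2157 to 3854 (1946 to 3629 with the filter re-applied) with single arrays left out. With no normalization the median log2 fold change of all probes moved from 0.02 to -0.19, and the share of calls higher in colon from 54.1% to 41.4%; relative to that median, Msmo1 was at 1.17 against 1.12, Lss at 0.75 in both, and 6 of 7 enzymes were above it in both.

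The 2 calls among other cholesterol synthesis genes became 0 with no normalization, 1 under the replicate block, 0 without colon arrays 1 and 4, and 1 to 3 with single arrays left out. The 2 calls in sterol sensing became 0 with no normalization, 0 without colon arrays 1 and 4, 4 with the intensity trend, and 2 to 4 with single arrays left out. When all 8 arrays had to be above background, fewer genes were tested: the 5 calls in uptake became 2 of 6 tested, and the 5 in export 3 of 3 tested. With single arrays left out, uptake gave 3 to 7 and export 5 to 6. Other mevalonate users gave 1 call with no background correction and 0 to 3 with single arrays left out, and fatty acid synthesis 4 to 6. Directions turned for genes that were not called: Cyp51 to 0.15 without small intestine array 2 and 0.32 without colon array 3 (range -0.26 to 0.32 over single arrays left out), Dhcr7 to -0.048 with no normalization and -0.045 without small intestine array 1 (range -0.045 to 0.51), and Fasn to -0.0090 with no normalization and to -0.030 without small intestine array 4 (range -0.10 to 0.30). The cause was not tested. A slide block was not run because the headers name no slides. Dim probes near background, such as Dhcr7 and Fasn, limit what their values show.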

Other observations

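Some genes of these lists had probes that differed, and they are given here after their values were seen. The brightest probe of Vldlr, a lipoprotein receptor, had a log2 fold change of -0.49 (limma adjusted p = 0.246), whereas 3 dimmer probes of the same gene were each called higher in colon. They had 1.86, with 3 small intestine arrays above background, 1.69, with 1 such array, and a bound of at least 2.17-fold on the probe with none. That last probe passed the filter through its colon arrays alone, so it could be called in that direction only and its call is no support. Cyp27a1, which makes 27-hydroxycholesterol, had -1.06 (adjusted p = 0.0512) on its brightest probe and -1.48 and -1.69 on the other 2, both called lower in colon. Nsdhl, which acts after Msmo1 in removing methyl groups, had 4 probes between 0.19 and 1.00, of which the dimmest was called higher in colon (adjusted p = 0.0198). Srebf1, the related factor that favours fatty acid genes, had 0.95 (SE 0.31, adjusted p = 0.0544).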
